A study of Mus musculus with 15 samples.

Results

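The livers compared here came from obese diabetic KKAy mice that had received XKA and from untreated C57BL/6J mice, 5 arrays of each kind out of the 15 arrays of the study, so 10 of 15 samples. The members were taken by their labels alone, and every gene on the array was compared between these 2 groups. XKA, or Xiao-Ke-An, is a Chinese herbal preparation made from several herbs and used against type 2 diabetes. All mice were male and 10 weeks old when the experiment began, the strains being matched for age in the methods. The XKA mice were KKAy mice on a high-fat diet that received XKA by gavage at 1.5 g/kg once daily for 32 days. The Normal mice were C57BL/6J mice on ordinary chow that received distilled water by gavage over the same days, and they came from another supplier than the KKAy mice. The Model mice, used below as the reference for the treatment, were KKAy mice on the high-fat diet that received distilled water. The KKAy strain carries the lethal yellow allele of agouti, which is expressed in many tissues and makes the mice overeat, on a background that is not that of C57BL/6J. Strain, diet, supplier and XKA therefore all differed between XKA and Normal livers and cannot be told apart in that comparison. The XKA and Model mice differed in the treatment only, as far as the labels and methods state. Each array held liver RNA of 1 mouse, and the hour of sacrifice was not stated.

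The liver makes cholesterol, fatty acids and triglyceride, packs them into lipoproteins and turns cholesterol into bile acids. Its sterol genes are driven by SREBP2, which is held in the endoplasmic reticulum by INSIG proteins when sterols are plentiful, and its fatty acid genes by SREBP1c, which insulin raises. In mice with a fatty liver PPARG and its lipid droplet genes are commonly raised, and many liver enzymes also follow the daily clock set by BMAL1 (Arntl) and CLOCK and opposed by the PER and CRY proteins.

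After each array was scaled to a median of 1000 and each gene was read from its brightest probe set, 18193 genes were compared with limma, and a gene was called at a Benjamini-Hochberg adjusted p under 0.05. The comparison of XKA with Normal livers called 1361 genes (7.48%), of which 1006 were higher in the XKA livers (5.53%) and 355 were lower (1.95%). The 5 XKA arrays and the 5 Normal arrays did not overlap for 1279 genes (7.03% of those tested), all XKA arrays being above the Normal arrays for 5.04% and below them for 1.99%. The split of the calls depended on the scaling, since the values as deposited gave 703 higher and 780 lower and quantile normalization gave 1020 and 805. Over all genes the median log2 difference, XKA minus Normal, was 0.10 after median scaling, -0.06 as deposited and 0.02 after quantile normalization, and the differences below are to be read relative to it. Within a group the arrays had a mean rank correlation of 0.944 to 0.956, with XKA replicate 1 the lowest, and with 1 array left out 963 to 1454 genes were called. The Model livers differed from the same Normal arrays by 2366 genes (13%), and the XKA livers from the Model livers by 32 genes (0.176%). Between XKA and Model 1567 genes had an unadjusted p under 0.05, which about 5% of genes would have if none differed. Because the comparisons with Normal share the 5 Normal arrays, their values are set side by side below and no likeness between them is drawn. Differences are given on the log2 scale with their standard error (n = 5 in each group), and levels as scaled intensities, in which 1000 is the median probe set of an array. Values are listed in the order of replicates 1 to 5.

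The samples carried the marks of liver and of the strains. Albumin (Alb) read 338000 to 687000 in the Normal arrays and 459000 to 617000 in the XKA arrays, and of the 11 hepatocyte markers measured only Apob was called. Agouti (a), the gene changed in KKAy, read 1210, 1600, 1480, 1410 and 1300 in the Normal livers and 14400, 15400, 16200, 13100 and 12000 in the XKA livers. The groups were far apart, by 3.34 ± 0.16 (adjusted p = 3.92e-11), and the Model arrays read 13100, 13700, 17400, 14000 and 8740. Nnt, the mitochondrial transhydrogenase in which C57BL/6J mice carry a known deletion, was higher in the XKA livers by 1.61 ± 0.14 (adjusted p = 2.08e-07). The array probes were designed on a reference sequence, so that a lower reading in KKAy liver may be less RNA or a KK sequence that the probes match less well, and these cannot be told apart here. In whole liver, fewer cells of a kind and less RNA per cell cannot be told apart either.

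Of the 30 pathway lists that of cholesterol synthesis held the most genes that were lower in the XKA livers, and the stretches just upstream of 4 of its genes and of Insig2, which was lower under XKA alone, are shown first. They are given 5′ to 3′ on the strand of the gene and end at the base before the annotated start (RefSeq, GRCm38.p6). Capitals mark the box CCAAT or its reverse complement ATTGG, to which the factor NF-Y binds beside SREBP2, and in Hmgcs1 also the sterol element TCACNCCAC. For each gene the first promoter entry with CCAAT or ATTGG in the stretch was shown, so that a box is present by choice. Hmgcs1 lies at chr13:119690171-119690350 on the plus strand, Idi1 at chr13:8885486-8885605 on the plus strand, Cyp51 at chr5:4104698-4104817 on the minus strand, Tm7sf2 at chr19:6067851-6067970 on the minus strand and Insig2 at chr1:121332590-121332739 on the minus strand.
Hmgcs1: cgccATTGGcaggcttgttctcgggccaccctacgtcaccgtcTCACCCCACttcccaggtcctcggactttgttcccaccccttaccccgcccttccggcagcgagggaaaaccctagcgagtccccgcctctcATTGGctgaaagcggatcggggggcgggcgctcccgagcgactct
Idi1: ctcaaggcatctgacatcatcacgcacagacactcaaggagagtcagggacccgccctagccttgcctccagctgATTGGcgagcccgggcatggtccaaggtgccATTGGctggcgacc
Cyp51: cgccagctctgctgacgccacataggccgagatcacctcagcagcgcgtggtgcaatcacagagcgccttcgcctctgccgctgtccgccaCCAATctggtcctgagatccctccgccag
Tm7sf2: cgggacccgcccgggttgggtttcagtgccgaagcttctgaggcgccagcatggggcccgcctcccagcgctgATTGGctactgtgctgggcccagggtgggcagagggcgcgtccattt
Insig2: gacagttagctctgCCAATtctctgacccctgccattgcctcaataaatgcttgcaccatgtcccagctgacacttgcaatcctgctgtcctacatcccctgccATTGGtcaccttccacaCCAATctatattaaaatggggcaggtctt

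Within the 250 bases upstream of the start, on either strand, CCAAT was found in all 9 of the called cholesterol synthesis genes that had a promoter entry, but also in all 5 of those not called. Among the 32851 mouse promoter entries, each counted singly, CCAAT was found in 33.8% and TCACNCCAC in 1.05%. A gene was counted if any of its entries held the motif, so these shares and the gene counts are on unlike units. TCACNCCAC was found in Hmgcs1 alone among the 9, with its first base 137 bases upstream. A match of letters is a description of the sequence and does not show that a factor binds there.

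Genes of cholesterol synthesis were low in the XKA livers. Of the 17 genes of the pathway that were measured, 11 were lower in XKA than in Normal livers and none was higher (64.7% called, against 7.48% of all genes), and their median difference was -1.43. The same 17 genes gave 12 lower and none higher in the Model livers, with a median of -1.31, and none was called between XKA and Model. The mean over the pathway, relative to the Normal mean, lay between -1.84 and -1.28 in the XKA arrays and between -0.22 and 0.44 in the Normal arrays.

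Low levels ran from the first steps of the pathway to the last. Hmgcs1, the synthase that makes HMG-CoA, read 154000, 112000, 109000, 122000 and 113000 in the Normal arrays and 22700, 28500, 27800, 23200 and 25400 in the XKA arrays. All 5 XKA arrays lay under the lowest Normal array, and the difference was -2.25 ± 0.14 (adjusted p = 1.20e-09). Idi1, which isomerises the first isoprene unit, read 63800, 26400, 25400, 36300 and 31900 in Normal and 1500, 3070, 3130, 3460 and 3740 in XKA livers. This was the largest change of the pathway, -3.60 ± 0.26 (adjusted p = 1.52e-08), or 12.2-fold, and XKA replicate 1 was the lowest array. A second Idi1 probe set gave -4.38. Squalene epoxidase (Sqle), the first oxygen-dependent step, read 17400, 6690, 8660, 12100 and 8720 in the Normal arrays and 888, 1330, 1400, 780 and 621 in the XKA arrays, a difference of -3.40 ± 0.33 (adjusted p = 9.09e-07). In the XKA livers Sqle stood at about the median of the array, as it did in the Model livers (639, 373, 908, 1020 and 985). Cyp51, the lanosterol demethylase, read 28000, 21800, 17300, 18900 and 18200 in Normal and 3140, 3630, 2960, 4510 and 3430 in XKA livers, again without overlap, at -2.55 ± 0.19 (adjusted p = 1.67e-08).

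Among the other enzymes the phosphomevalonate kinase Pmvk was lower, at -2.06 ± 0.25 (adjusted p = 1.53e-05), the sterol reductase Tm7sf2 at -1.80 ± 0.20 (adjusted p = 4.94e-06) and the sterol dehydrogenase Nsdhl at -1.43 ± 0.17 (adjusted p = 1.61e-05). Dhcr7, at the last step, was lower, at -0.94 ± 0.22 (adjusted p = 0.0111). Fdps and Msmo1 were called on their brightest probe set, at -2.25 ± 0.23 and -2.39 ± 0.26, but not on the mean of their probe sets, at -0.05 and -1.43. Sc5d was lower, at -0.91 ± 0.25, while another of its probe sets gave 0.69. The 6 genes not called included Mvd, at -0.56 ± 0.24, and the squalene synthase Fdft1, at -0.38 ± 0.23. Nsdhl, Dhcr7, Sc5d, Mvd and Fdft1 were named after their values were seen, to complete the pathway. In the Model livers the corresponding differences from Normal were -1.75 for Hmgcs1, -3.72 for Idi1, -3.78 for Sqle, -3.03 for Cyp51, -2.06 for Pmvk and -1.96 for Tm7sf2.

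**Figure D1:**
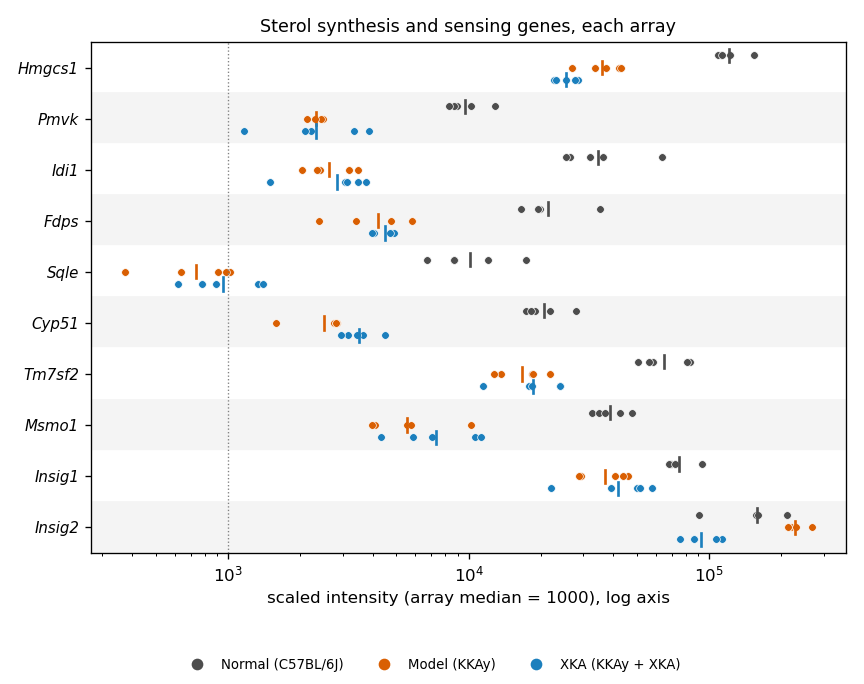
Scaled intensity (log axis) of 8 genes of cholesterol synthesis and of Insig1 and Insig2 in each liver. Points are single arrays of the Normal, Model and XKA groups (n = 5 each), short bars are the mean of the log2 values and the dotted line is the array median of 1000. The XKA arrays sit with the Model arrays and under the Normal arrays for the synthesis genes, whereas Insig2 is lowest in XKA.

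Of the 11 measured genes of sterol sensing and uptake 2 were called, both lower. Insig2, which retains SREBP in the endoplasmic reticulum, read 211000, 210000, 156000, 159000 and 91000 in Normal, 220000, 213000, 267000, 230000 and 212000 in Model and 86700, 113000, 75600, 86500 and 107000 in XKA livers. XKA was thus below Normal, at -0.77 ± 0.19 (adjusted p = 0.0149), and below Model, at -1.29 ± 0.19 (adjusted p = 0.00482), whereas Model minus Normal was 0.52 ± 0.19 (adjusted p = 0.0824). All 3 Insig2 probe sets were called in both comparisons, and the calls of the brightest held with each of the 15 arrays left out. Its relative Insig1 read 69500, 72500, 68400, 72500 and 93200 in Normal and 22000, 50200, 57900, 51600 and 39000 in XKA livers, a difference of -0.84 ± 0.21 (adjusted p = 0.0176) that was lost without Normal replicate 5, the highest array (-0.76, adjusted p = 0.052).

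Fatty acid and triglyceride genes differed in both directions. Here and in the lists below, the share of a list that was called is to be read against the 7.48% of all genes called between XKA and Normal livers, 5.53% higher and 1.95% lower. In de novo lipogenesis 3 of 15 genes were higher and 2 lower (33.3%), and in triglyceride synthesis 3 of 15 were higher and 2 lower (33.3%). Srebf1, which encodes SREBP1, read 27600, 19200, 17500, 25000 and 39200 in Normal and 69700, 100000, 116000, 68000 and 45400 in XKA livers. The groups did not overlap and differed by 1.62 ± 0.24 (adjusted p = 1.37e-04). Thrsp, an activator of lipogenesis, was higher by 2.26 ± 0.32 (adjusted p = 1.13e-04), and Me1, the malic enzyme that supplies NADPH, by 0.94 ± 0.21 (adjusted p = 0.0067). In the opposite direction moved Acss2, which activates acetate and is a known sterol-regulated gene, at -1.04 ± 0.18 (adjusted p = 0.00109), and Acacb, the mitochondrial acetyl-CoA carboxylase, which was at least 3.47-fold lower (fitted difference -2.59 ± 0.61, adjusted p = 0.0115), with an XKA mean below the array median. The calls of Me1 and Acacb were lost on the mean of their probe sets. Mogat1, the monoacylglycerol acyltransferase, read 1440, 925, 448, 619 and 1390 in Normal livers, about the array median, and 25200, 22200, 21200, 20200 and 33700 in XKA livers. It was at least 20.9-fold higher in XKA livers, a fitted difference of 4.78 ± 0.41 (adjusted p = 1.72e-07), and read 9100, 53500, 49900, 62300 and 31600 in the Model arrays. Gpat3, which starts glycerolipid synthesis, was higher by 2.01 ± 0.24 (adjusted p = 1.52e-05). Lpin1, the phosphatidate phosphatase, read 33700, 20600, 16300, 19300 and 17000 in Normal and 2800, 4890, 4400, 2660 and 8670 in XKA livers. It was lower in every XKA array, at -2.28 ± 0.34 (adjusted p = 1.86e-04), and a second probe set gave -2.07.

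Some lipid droplet genes were high in the XKA livers. Of 23 lipid droplet genes and PPARG targets 8 were higher and 1 was lower in XKA than in Normal livers (39.1%, against 7.48% of all genes), with a median difference of 0.44, while the Model livers had 12 higher and 1 lower and a median of 0.67. Pparg itself read 2210, 1950, 1200, 1110 and 1200 in Normal and 4780, 5670, 4430, 4940 and 4240 in XKA livers, a difference of 1.70 ± 0.21 (adjusted p = 1.84e-05). The fatty acid transporter Cd36 read 22500, 19700, 12600, 12900 and 12600 in Normal and 41200, 70600, 33200, 42100 and 45300 in XKA livers, apart by 1.53 ± 0.19 (adjusted p = 2.90e-05), and all 3 of its probe sets were called. Plin4, a droplet coat protein, read 1270, 1660, 2580, 2340 and 1040 and 12700, 9940, 5280, 13400 and 18700, in the same order, and rose furthest, by 2.73 ± 0.39 (adjusted p = 1.34e-04). The droplet protein gene Cidec, an adipocyte marker as well, was at least 1.61-fold higher (fitted difference 2.06 ± 0.53, adjusted p = 0.0195), with all Normal arrays below the array median, and its call was lost without XKA replicate 5 or Normal replicate 2 (log2 differences with 1 array left out 1.68 to 2.39). Of the 10 adipocyte markers measured it was the only one called, and the adipocyte hormone Adipoq lay under the array median in every array, at 68.2 to 755 in XKA and 112 to 497 in Normal livers. The lipase Lpl, the 1 gene that was lower, is described with the genes changed under XKA below. Among the 22 lipoprotein genes 7 were higher and none was lower (31.8%, against 7.48% of all genes), and in the Model livers 10 were higher and none was lower. Apoa4, an apolipoprotein secreted with triglyceride, read 58900, 42800, 43700, 38300 and 49300 in Normal and 317000, 228000, 226000, 286000 and 269000 in XKA livers, a rise of 2.51 ± 0.15 (adjusted p = 1.39e-09). The others lay between 0.56 for Apob and 0.82 for the sterol exporter Abcg5. Apob turned to -0.16 on the mean of its probe sets, and its call was lost without XKA replicate 2, 3 or 4 or Normal replicate 2, 3, 4 or 5 (log2 differences with 1 array left out 0.50 to 0.64). As deposited, the list gave 6 higher and 1 lower.

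In fatty acid oxidation and among PPARA targets 6 of 40 genes were higher and 4 lower (25%, against 7.48% of all genes). Cyp4a14, a fatty acid omega-hydroxylase, read 526000, 437000, 352000, 422000 and 333000 in Normal and 1690, 23100, 76900, 18000 and 10500 in XKA livers. The fall was -4.85 ± 0.66 (adjusted p = 6.31e-05), or 28.9-fold, and its neighbour on the genome, Cyp4a31, was lower, at -2.13 ± 0.31 (adjusted p = 1.23e-04). The peroxisomal oxidase Acox2 was higher by 0.74 ± 0.13 (adjusted p = 0.00128), while Aldh3a2, which oxidises fatty aldehydes, was lower, at -1.37 ± 0.22 (adjusted p = 4.56e-04). Of 26 bile acid genes 2 were higher and 3 lower (19.2%, against 7.48%). Cyp8b1, the sterol 12-alpha-hydroxylase that sets the share of cholic acid, read 194000, 180000, 173000, 123000 and 113000 in Normal and 7990, 52600, 50200, 55000 and 41000 in XKA livers. It was lower, at -2.16 ± 0.42 (adjusted p = 0.00273), and replicate 1 was the lowest XKA array. The bile salt export pump Abcb11 read 140000, 120000, 75100, 130000 and 123000 in Normal and 56600, 88400, 69700, 68700 and 63500 in XKA livers, lower, at -0.75 ± 0.16 (adjusted p = 0.00625). The uptake carrier Slco1a4 was lower, at -3.37 ± 0.35 (adjusted p = 2.21e-06). Cyp39a1, an oxysterol hydroxylase outside the list, was lower, at -3.45 ± 0.36 (adjusted p = 2.71e-06). Higher were the carrier Slco1a1, by 0.84 ± 0.20 (adjusted p = 0.00975), and Fgfr4, the receptor of the gut hormone that restrains bile acid synthesis, by 0.67 ± 0.20 (adjusted p = 0.0416), the latter not without XKA replicate 1, 2 or 3 or Normal replicate 2, 3 or 4 or Model replicate 1 or 2 (log2 differences with 1 array left out 0.52 to 0.75).

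The largest single differences were in other genes. Ang, the secreted ribonuclease angiogenin, read 619000, 471000, 383000, 504000 and 452000 in Normal and 10900, 8640, 7490, 7230 and 6220 in XKA livers. It was the largest fall, -5.92 ± 0.20 (adjusted p = 9.72e-14), or 60.4-fold, but its 2 other probe sets gave -2.26 and -0.34, the latter not called. Gstp3, a pi-class glutathione transferase, read 5690, 3390, 3340, 4300 and 3210 in Normal and 274000, 376000, 347000, 298000 and 240000 in XKA livers. This was a rise of 6.28 ± 0.16 (adjusted p = 1.70e-15), or 77.9-fold, and Gstp3 was the only called gene among 31 glutathione transferases and NRF2 targets. Akr1c18, a hydroxysteroid dehydrogenase that inactivates progesterone, read 168, 61.3, 135, 839 and 804 in Normal livers, under the array median, and 21000, 35400, 19700, 46200 and 53400 in XKA livers. It was at least 32.5-fold higher, a fitted difference of 7.03 ± 0.54 (adjusted p = 3.98e-08). Its genomic neighbours Akr1c13 and Akr1c19 were higher by 0.84 ± 0.20 and 0.81 ± 0.24, the latter called in 4 of 15 fits with 1 array left out, and 4 of the 16 genes of this family and of steroid dehydrogenases were higher and 1 was lower. Gdpd3, a lysophospholipase, was at least 20.6-fold higher (4.73 ± 0.20, adjusted p = 4.23e-12) and Cap2, an actin regulator, at least 3.71-fold (6.26 ± 0.35, adjusted p = 2.88e-10). The immediate early gene Egr1 was lower, at -3.84 ± 0.27 (adjusted p = 1.45e-08). Pdxdc1 was higher by 4.51 ± 0.19, but another of its probe sets gave -2.34 and the mean of the probe sets 0.06. Against the same Normal arrays the Model livers gave -5.96 for Ang, 6.44 for Gstp3, 8.02 for Akr1c18, 4.93 for Gdpd3, 6.18 for Cap2 and -3.29 for Egr1.

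**Figure D2:**
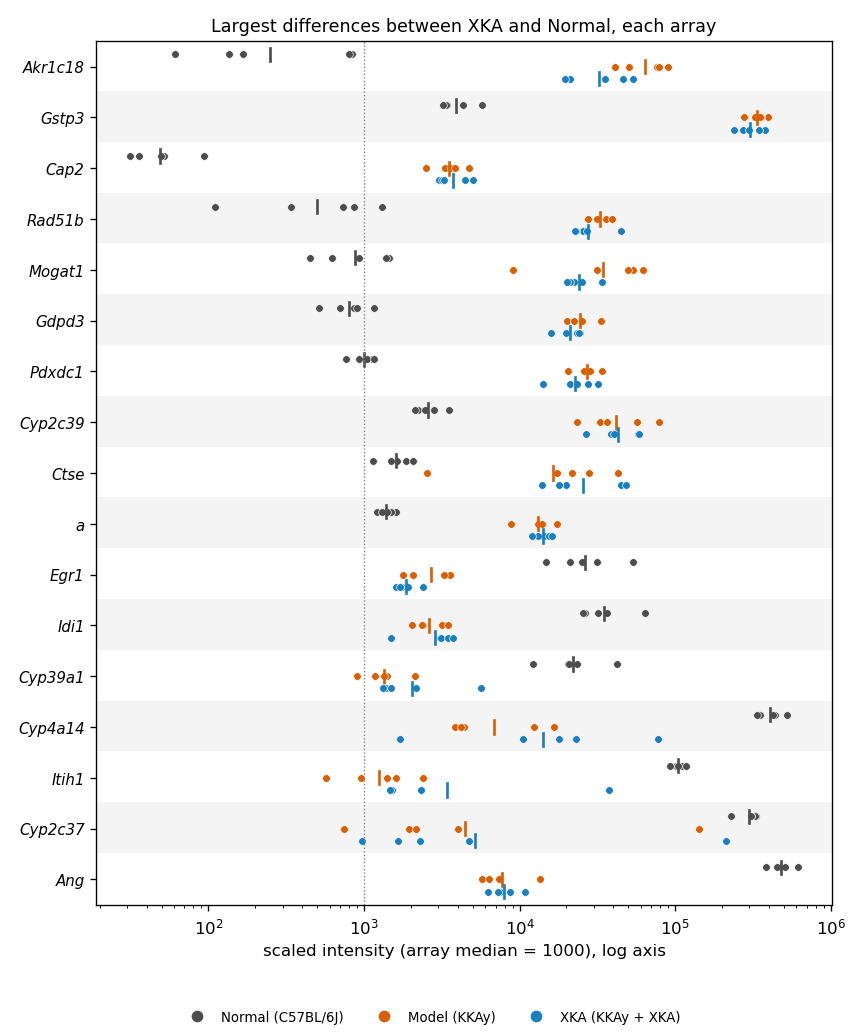
Scaled intensity (log axis) in each liver of 17 genes with large differences between XKA and Normal. Points are single arrays (n = 5 per group), short bars the mean of the log2 values and the dotted line the array median of 1000. Single XKA arrays stand apart from the rest of their group for Cyp2c37 and Itih1.

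A few genes were nearly all or none, with 1 mouse apart from the rest of its group. Cyp2c37, a cytochrome P450 that oxidises fatty acids, read 330000, 325000, 228000, 307000 and 306000 in Normal and 1650, 213000, 2280, 973 and 4700 in XKA livers. Replicate 2 was thus close to the Normal arrays while the other 4 XKA arrays were far below, and the difference over all 5 was -5.84 ± 1.23 (adjusted p = 0.00482). Model replicate 1 stood apart in the same way, at 143000, above Model readings of 739 to 4020. Itih1, a heavy chain of inter-alpha-inhibitor, read 110000, 101000, 91900, 104000 and 117000 in Normal and 2340, 1520, 1460, 2330 and 37400 in XKA livers, with replicate 5 between the groups (-4.94 ± 0.62, adjusted p = 2.33e-05). Akr1c12 read 63300, 78400, 54800, 49500 and 51700 in Normal and 4580, 4690, 48700, 3860 and 5440 in XKA livers, where replicate 3 reached almost the lowest Normal array (-2.99 ± 0.51, adjusted p = 7.89e-04). A different XKA mouse stood apart in each of these 3 genes. Cyp2c39 changed the other way from its family, with 2210, 3500, 2820, 2470 and 2120 in Normal and 38400, 40600, 58000, 26700 and 58200 in XKA livers (4.05 ± 0.27, adjusted p = 4.23e-09). Over cytochrome P450 families 1 to 3 it was the only one of 33 genes that was higher, and 4 were lower, of which Cyp2c37, Cyp2c54 and Cyp2c50 lie next to each other together with Cyp2c68, which was lower as well. With 1 array left out, Cyp2c54 and Cyp2c50 were each called in 8 of 15 fits, at -1.65 to -1.08 and -1.27 to -0.84. The call of Cyp2c54 was lost without XKA replicate 1, 4 or 5 or Normal replicate 1, 2, 4 or 5, and that of Cyp2c50 without XKA replicate 1, 3, 4 or 5 or Normal replicate 1, 2 or 4.

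Acute phase proteins, which the liver secretes in inflammation, were partly high. Of 27 measured genes 8 were higher and none was lower (29.6%, against 7.48% of all genes), with a median difference of 0.60, and the Model livers had 14 higher and a median of 0.74. The level varied among the XKA mice more than among the Normal mice. The mean over the list, relative to the Normal mean, was 1.86 in XKA replicate 1, 1.19 in replicate 2, 0.78 in replicate 3, 0.47 in replicate 4 and 0.22 in replicate 5, and it ranged from -0.20 to 0.33 in the Normal arrays. Mt2, a metallothionein that stress hormones and cytokines raise, read 58800, 19600, 64200, 48300 and 12900 in Normal and 565000, 257000, 197000, 347000 and 253000 in XKA livers, a rise of 3.15 ± 0.39 (adjusted p = 2.35e-05). Apcs, serum amyloid P, read 86300, 75800, 48300, 67700 and 63400 and 525000, 287000, 221000, 244000 and 113000, higher by 1.88 ± 0.33 (adjusted p = 9.29e-04), and the constitutive serum amyloid Saa4 was higher by 1.49 ± 0.16 (adjusted p = 4.56e-06). Saa2, the inducible form, read 28100, 14000, 9200, 56000 and 23300 in Normal and 566000, 519000, 80800, 37100 and 24700 in XKA livers, with a wide spread and replicate 1 the highest, at 2.43 ± 0.74 (adjusted p = 0.0499). Its call was kept in 5 of 15 fits with 1 array left out. Without XKA replicate 1 the list gave 5 higher genes and a median of 0.46. It also gave 5 without XKA replicate 2, Normal replicate 2 or Normal replicate 3. XKA replicate 1 read 203000 for the neutrophil attractant Cxcl1, where the other XKA arrays read 8980 to 10700.

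Few markers of other liver cells were called. The called shares of the macrophage (7.14%) and endothelial (7.69%) markers lay near the 7.48% of all genes. These lists are short, so their counts do not show whether a cell type differed in amount. Of 14 macrophage markers only Marco, a scavenger receptor, differed, and was at least 2.63-fold lower (fitted difference -3.04 ± 0.78, adjusted p = 0.0189), with the XKA mean below the array median. Its call was lost without XKA replicate 4 or Normal replicate 2 (log2 differences with 1 array left out -3.59 to -2.45). The Kupffer cell lectin Clec4f read 14300, 20500, 13600, 19900 and 21700 in Normal and 8940, 23400, 22400, 10000 and 12300 in XKA livers and was not called. The summed macrophage signal was 177222 to 318527 in Normal and 168433 to 299145 in XKA arrays. None of the 9 dendritic cell, 13 T and NK cell, 8 B cell, 9 neutrophil or 15 stellate cell markers was called. Of 13 endothelial markers 1 was called, the phosphatase Ptprb, which was higher by 0.46 ± 0.13 (adjusted p = 0.0399) and kept its call in 7 of 15 fits with 1 array left out (0.37 to 0.56). It was lost without Model replicate 2, XKA replicate 2, 3, 4 or 5 or Normal replicate 3, 4 or 5, and the mean of its 3 probe sets gave 0.11 and no call. Cdh1, the epithelial cadherin, which is listed as a bile duct marker but is made by hepatocytes too, read 29300, 24400, 26700, 35200 and 34000 in Normal and 14400, 11000, 10800, 13900 and 14200 in XKA livers. It was lower, at -1.22 ± 0.14 (adjusted p = 6.35e-06), while the other 5 bile duct markers were not called. Alas2, the heme enzyme of red cell precursors, was higher by 1.42 ± 0.19 (adjusted p = 6.61e-05), without overlap, and the other 4 erythroid markers were not called. Hemoglobin (Hba-a1) read 149 to 1300 in Normal and 175 to 724 in XKA arrays, around or below the array median, and the summed erythroid signal, most of it from Alas2, was 11211 to 19893 and 25708 to 36517. Of 28 interferon response and MHC class I genes 1 was higher in XKA livers, Psmb9, at 0.95 ± 0.25 (adjusted p = 0.023), though not without XKA replicate 2 or 3 or Normal replicate 3 or 4, and of 30 cell cycle genes 2 were higher and 2 lower. For the Model livers these lists gave 6 and 8 higher genes and none lower, where 10.6% of all genes were higher and 2.43% lower. Neither list held a gene called between XKA and Model. Outside the lists, the interferon-inducible genes Ifi44l and Ifi202b were among the largest rises in XKA livers. Ifi44l read 84.4 to 397 in Normal and 2520 to 4280 in XKA arrays (fitted difference 4.29 ± 0.48, adjusted p = 5.29e-06). Ifi202b read 35.1 to 113 and 566 to 1690 (4.45 ± 0.57, adjusted p = 3.19e-05). Model minus Normal was 5.05 for Ifi44l and 5.87 for Ifi202b. All Normal readings of both genes lay below the array median, as did the lowest XKA reading of Ifi202b, so the fitted differences do not give a fold. Whether these rises belonged to an interferon response was not tested.

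Clock genes were called in the XKA livers, and mostly not in the Model livers. Of 18 measured clock genes 5 were higher and 2 lower in XKA than in Normal livers (38.9%, against 7.48% of all genes), while Model minus Normal gave 1 higher and none lower. No clock gene was called between XKA and Model, so a difference between treated and untreated KKAy livers was not shown. Arntl, which encodes BMAL1, read 7020, 6640, 4820, 5170 and 2400 in Normal, 1800, 4120, 6680, 5050 and 2880 in Model and 2490, 2100, 2030, 2160 and 1320 in XKA livers. It was lower in XKA than in Normal livers at -1.30 ± 0.32 (adjusted p = 0.0163), with XKA replicate 1 just above Normal replicate 5, so that the groups overlapped. Dbp, an output of the clock that peaks when Arntl is low, read 35300, 38700, 66700, 31400 and 111000 in Normal and 88400, 143000, 131000, 137000 and 96900 in XKA livers, higher by 1.22 ± 0.34 (adjusted p = 0.0326). Per3 read 1400, 1860, 2210, 2120 and 4090 in Normal and 3880, 5960, 6520, 6760 and 5200 in XKA livers, higher by 1.35 ± 0.28 (adjusted p = 0.00411), but its 5 other probe sets were not called and the mean of all 6 gave -0.000395. Per2 was higher by 1.27 ± 0.22 (adjusted p = 7.78e-04), Tef by 0.76 ± 0.17 (adjusted p = 0.00886) and Nr1d2 by 0.60 ± 0.13 (adjusted p = 0.00477), and Clock was lower, at -0.67 ± 0.18 (adjusted p = 0.0237). The call of Dbp was lost without XKA replicate 2, 3 or 4 or Normal replicate 1, 2 or 4 (log2 differences with 1 array left out 1.05 to 1.51), and that of Clock without XKA replicate 5 or Normal replicate 1, 2 or 4 (log2 differences with 1 array left out -0.75 to -0.60). Nr1d1, a repressor of Arntl, was not called, at -1.35 ± 0.66, nor were Per1 at 1.13 ± 0.40 and Ciart at 1.88 ± 0.66.

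Single mice of the other groups read like the XKA mice. The log2 difference between Dbp and Arntl within an array, which is large where the clock output is high and Arntl low, was 5.15, 6.08, 6.02, 5.99 and 6.19 in the XKA livers. It was 2.33, 2.54, 3.79, 2.60 and 5.53 in the Normal livers and 6.23, 4.53, 2.23, 3.61 and 4.26 in the Model livers. Normal replicate 5 and Model replicate 1 thus lay within or close to the XKA range, and the XKA arrays varied least. For all 7 called clock genes, Normal replicate 5 was the Normal array nearest to the XKA mean, as it was for 20.2% of all genes. With these 2 arrays left out together, a choice made after their values were seen, 8 clock genes were higher and 2 lower. The hour at which each mouse was killed was not given, and the methods name both a fed and a fasting state at the end of the experiment. The part of either in these differences was not tested. On the mean of the probe sets 1 clock gene was higher and 1 lower, and with no intensity trend in the variances 4 were higher and none lower.

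**Figure D3:**
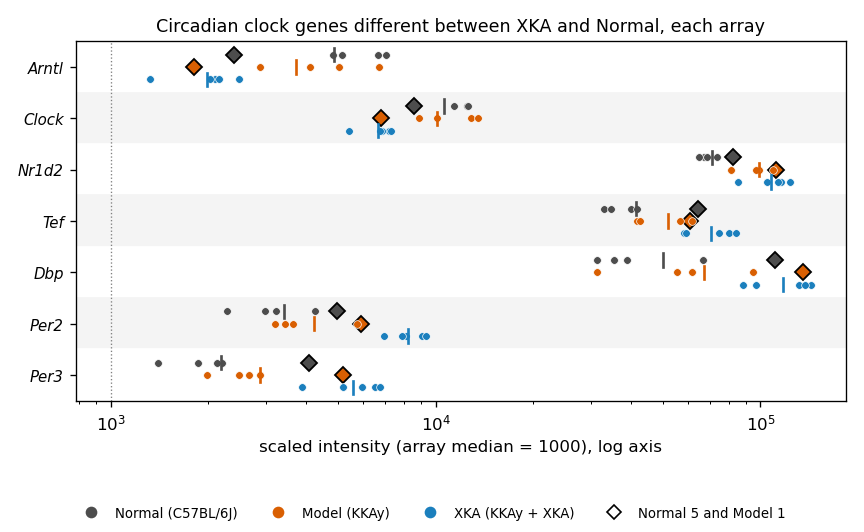
Scaled intensity (log axis) of the 7 called clock genes in each liver. Points are single arrays (n = 5 per group), diamonds mark Normal replicate 5 and Model replicate 1, short bars are the mean of the log2 values and the dotted line is the array median of 1000. The 5 XKA arrays lie close together, and both diamonds lie toward them for Arntl and Dbp.

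Some genes of NAD and purine metabolism were higher in the XKA livers. In NAD synthesis 5 of 18 genes were higher and none was lower (27.8%, against 7.48% of all genes), but as deposited the list gave 3 higher and 2 lower and after quantile normalization 5 and 2, so that its direction depended on the scaling for part of its genes. Counts of 3 were also obtained without Model replicate 1 or 4, without XKA replicate 2, 3 or 4 and without Normal replicate 2, 3, 4 or 5. Nampt, the rate-limiting step of NAD salvage, read 14000, 16100, 12100, 13500 and 12600 in Normal and 34200, 40600, 51200, 36900 and 29300 in XKA livers. The difference was 1.48 ± 0.16 (adjusted p = 2.71e-06), all 3 of its probe sets were called, and the Model arrays read 27700, 22600, 32100, 28000 and 18800. In purine metabolism 6 of 24 genes were higher and none was lower (25%, against 7.48% of all genes). As deposited, 6 were higher and 2 lower. Xdh, which makes uric acid, read 34100, 32500, 27800, 23500 and 31800 in Normal and 48200, 66200, 62800, 52300 and 53900 in XKA livers, a rise of 0.92 ± 0.14 (adjusted p = 3.31e-04). Gda, the guanine deaminase, rose by 1.47 ± 0.18 (adjusted p = 2.09e-05). Outside these lists Igfbp3, a carrier of insulin-like growth factor, was higher by 1.18 ± 0.28 (adjusted p = 0.0126) and its relative Igfbp2 lower, at -1.81 ± 0.44 (adjusted p = 0.0128). Of 36 genes of the urea cycle and amino acid breakdown only Bckdhb was called, at 0.72 ± 0.16 (adjusted p = 0.00675), of 11 sulfotransferase genes none, and of 26 citrate cycle genes 1 in each direction.

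To find differences that appeared only under treatment, the 3 comparisons were read together. Of the 1361 genes that separated XKA from Normal livers 1074 (5.9% of those tested) were called in the Model livers as well, and 287 (1.58%) were not. A gene that passed against Normal under XKA and missed in Model need not differ between XKA and Model, and of the 287 genes 12 (0.066% of those tested) were also called between XKA and Model. The count moved with single arrays. It was 3 without XKA replicate 3, 5 without Model replicate 2 or 4, 6 without Model replicate 3, XKA replicate 5 or Normal replicate 1, and up to 14 without XKA replicate 1. For 3 of the 12, Insig2, Nmrk1 and Pabpn1, both calls held with each of the 15 arrays left out. Normal replicate 5 was the Normal array nearest to the XKA mean for 6 of the 12, among them Insig2 and Nmrk1, against 20.2% of all genes. The part of this in the differences was not tested. Without Normal replicate 5 and Model replicate 1 there were 14 such genes.

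Nmrk1, a kinase that phosphorylates nicotinamide riboside on the way to NAD, read 7350, 8720, 9940, 7820 and 10200 in Normal, 11600, 10800, 7520, 8290 and 8160 in Model and 14100, 30100, 39100, 24000 and 22200 in XKA livers. The XKA arrays lay above every Normal array, by 1.49 ± 0.21 (adjusted p = 8.06e-05), and above Model by 1.42 ± 0.21 (adjusted p = 0.00482), while Model minus Normal was 0.07 ± 0.21. A second Nmrk1 probe set gave 1.79 and 1.51 and was called in both, and the last, near the array median, in neither. Pabpn1, which binds the poly(A) tails of messenger RNA, read 92600, 90600, 62500, 55300 and 63000 in Normal, 46000, 51600, 61900, 55300 and 42800 in Model and 106000, 147000, 153000, 114000 and 116000 in XKA livers. It differed by 0.82 ± 0.16 (adjusted p = 0.00261) from Normal and by 1.30 ± 0.16 (adjusted p = 0.0015) from Model, on 1 of its 4 probe sets only. Insig2, given above, was the other gene of this kind.

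The other 9 depended on single arrays in at least 1 of the comparisons. Ampd2, an AMP deaminase, read 15500, 17400, 12600, 20600 and 17500 in Normal, 15500, 15600, 17000, 18600 and 12700 in Model and 42400, 36400, 34600, 24000 and 24400 in XKA livers. It differed by 0.93 ± 0.17 (adjusted p = 0.00105) from Normal and by 1.003 ± 0.17 (adjusted p = 0.0129) from Model, and kept these calls in 15 and 14 of the 15 fits with 1 array left out. Lpl, which releases fatty acids from lipoproteins, read 28000, 36200, 25400, 29300 and 28200 in Normal, 46300, 57700, 21800, 49300 and 46100 in Model and 6400, 20500, 19100, 23300 and 11000 in XKA livers. Lpl differed by -1.01 ± 0.29 (adjusted p = 0.0381) from Normal and by -1.54 ± 0.29 (adjusted p = 0.0297) from Model, and kept these calls in 8 and 9 of the 15 fits with 1 array left out. Nrg4, a growth factor of the neuregulin family, read 1430, 1600, 1010, 1910 and 1340 in Normal, 3860, 2240, 2720, 2030 and 1540 in Model and 7710, 5250, 8120, 8790 and 3830 in XKA livers. Nrg4 differed by 2.17 ± 0.27 (adjusted p = 2.33e-05) from Normal and by 1.45 ± 0.27 (adjusted p = 0.0297) from Model, and kept these calls in 15 and 8 of the 15 fits with 1 array left out. Arrdc3, an arrestin-like protein, was lower, at -2.12 ± 0.30 against Normal and -1.51 ± 0.30 against Model. Of the rest, Clpx, a subunit of a mitochondrial protease, and Dtx4, a ubiquitin ligase, were lower in XKA livers, at -0.95 ± 0.23 and -0.80 ± 0.21 against Normal and -1.27 ± 0.23 and -1.19 ± 0.21 against Model. Lrp4, a receptor of the LDL receptor family, Riok2, a kinase of ribosome assembly, and the transcript A930033H14Rik were higher, by 0.72 ± 0.21, 0.69 ± 0.15 and 1.29 ± 0.23 against Normal and 1.32 ± 0.21, 0.77 ± 0.15 and 1.17 ± 0.23 against Model. With 1 array left out, the less stable of each gene's 2 calls was kept in 5 of 15 fits for Arrdc3, 9 for Clpx, 11 for Dtx4, 5 for Lrp4, 8 for Riok2 and 3 for A930033H14Rik. On the mean of the probe sets 2 such genes were found in all.

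**Figure D4:**
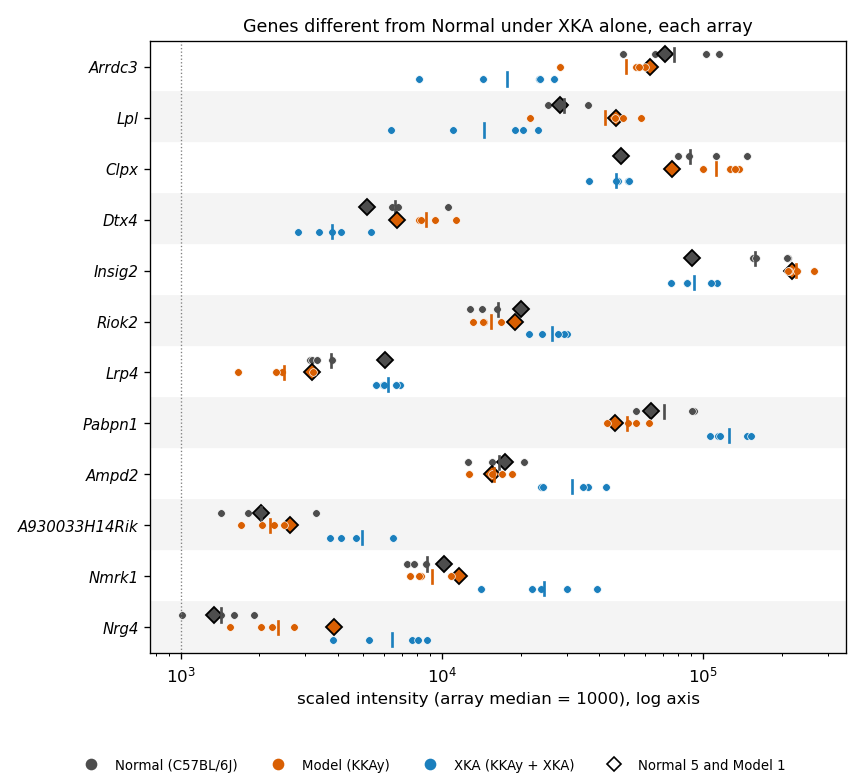
Scaled intensity (log axis) of the 12 genes called in XKA minus Normal and XKA minus Model and not in Model minus Normal. Points are single arrays (n = 5 per group), diamonds mark Normal replicate 5 and Model replicate 1, short bars are the mean of the log2 values and the dotted line is the array median of 1000. The XKA arrays lie toward one side for each gene, apart from the Model arrays for all but Lpl and Nrg4.

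The genes that no longer separated the strains under treatment were the converse. Of the 2366 genes called in Model minus Normal 1292 (7.1% of those tested) were not called in XKA minus Normal, and 15 of these (0.0824%) were also called between XKA and Model, so that the XKA livers stood nearer the Normal ones. Calls between XKA and Model held with each array left out for 4 of them, Chic1, Pnpla7, Rab5c and Stmn1, and the number of such genes moved from 6 to 31 with 1 array left out. Pnpla7, a lysophospholipase, read 41200, 47400, 35400, 44800 and 42500 in Normal, 115000, 103000, 148000, 93100 and 90800 in Model and 76800, 42800, 55500, 56600 and 56600 in XKA livers. The Model livers exceeded Normal by 1.36 ± 0.15 (adjusted p = 5.19e-06), and the XKA livers differed from Model by -0.93 ± 0.15 (adjusted p = 0.0129) and from Normal by 0.43 ± 0.15 (adjusted p = 0.107). Stmn1, a regulator of microtubules, read 8970, 8720, 8880, 7280 and 7950 in Normal, 21500, 16700, 25500, 19300 and 17000 in Model and 10700, 11100, 10100, 11300 and 10600 in XKA livers, with XKA minus Model at -0.88 ± 0.12 (adjusted p = 0.0047). Rab5c, a small GTPase of early endosomes, went the other way, at 21500, 17500, 13300, 14900 and 17300 in Normal, 11700, 12600, 12200, 11300 and 8430 in Model and 22800, 25500, 24100, 20600 and 17100 in XKA livers, and XKA minus Model was 0.97 ± 0.15 (adjusted p = 0.00656). Gpd1, the glycerol-3-phosphate dehydrogenase that makes the backbone of triglyceride, stood at -0.76 ± 0.14 (adjusted p = 0.0297) against Model and at 0.30 ± 0.14 (adjusted p = 0.259) against Normal. Not being called against Normal does not show that a gene was back at the Normal level.

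**Figure D5:**
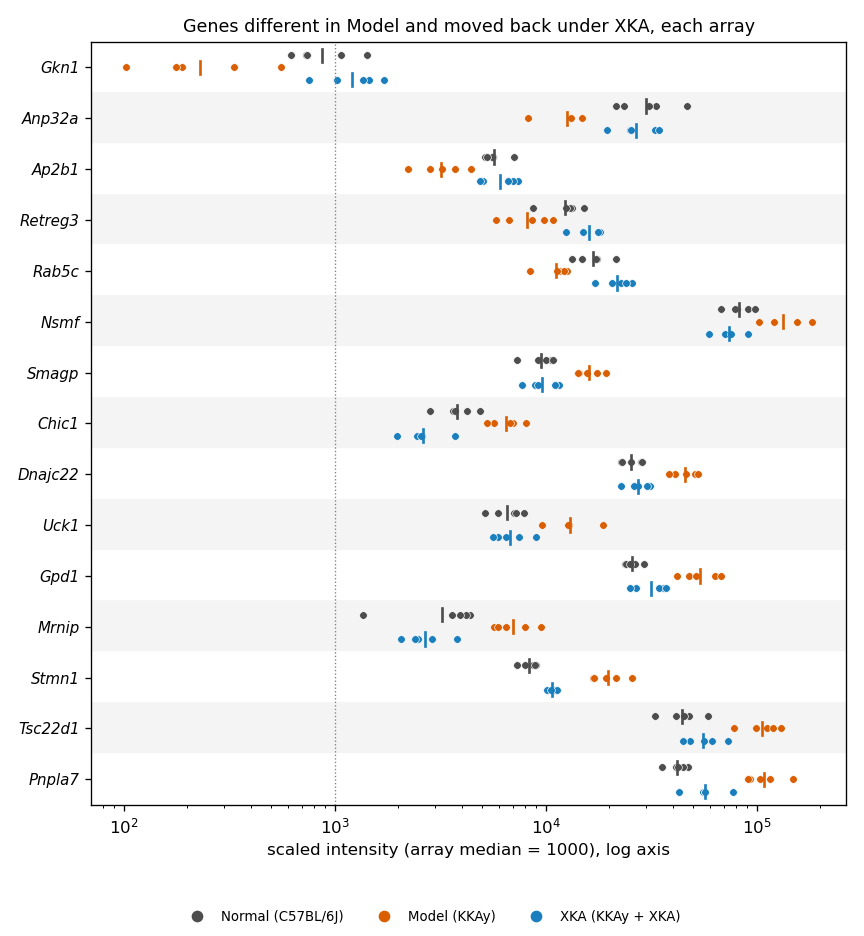
Scaled intensity (log axis) of the 15 genes called in Model minus Normal and XKA minus Model and not in XKA minus Normal. Points are single arrays (n = 5 per group), short bars are the mean of the log2 values and the dotted line is the array median of 1000. The Model arrays lie to one side without overlap with the XKA arrays, and the XKA arrays overlap the Normal arrays for every gene but Stmn1.

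In 3 genes (0.0165%) all 3 comparisons were called. Elovl3, a fatty acid elongase, stood on opposite sides of Normal in the 2 KKAy groups, with 84800, 119000, 88100, 133000 and 83700 in Normal, 161000, 161000, 173000, 212000 and 145000 in Model and 39700, 66000, 48800, 61200 and 90200 in XKA livers. It was higher in Model by 0.76 ± 0.19 (adjusted p = 0.0115) and lower in XKA at -0.76 ± 0.19 (adjusted p = 0.0173), and XKA minus Model was -1.52 ± 0.19 (adjusted p = 0.0015). The call against Normal was held in 13 and that against Model in 15 of the 15 fits with 1 array left out. Anxa2, a calcium-dependent membrane protein, lay between the other groups, 1.25 ± 0.23 above Normal and -1.37 ± 0.23 against Model, and so did Myom3, a sarcomere protein, at 2.87 ± 0.24 and -1.21 ± 0.24, with a Normal mean below the array median, so that it was at least 4.37-fold above Normal. Their calls against Model held in 12 and 5 of the 15 fits.

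The genes that the study singles out by name were measured too. It reports Gpd2, Fgf1 and Gnai1 as highly reversed under XKA, with similar patterns by quantitative RT-PCR normalized to β-actin (Actb). Reversal concerns XKA against Model, so a reversed gene need not differ between XKA and Normal. Gnai1, an inhibitory G protein subunit, read 5030, 4600, 4100, 3560 and 5320 in Normal and 9660, 17100, 9380, 6710 and 11600 in XKA livers. All XKA arrays were above the Normal arrays, by 1.22 ± 0.20 (adjusted p = 6.56e-04), and XKA minus Model was -0.87 ± 0.20 (adjusted p = 0.11). Its neighbours Cd36 and Phtf2 were higher as well. Gpd2, the mitochondrial glycerol-3-phosphate dehydrogenase, was higher by 0.61 ± 0.12 (adjusted p = 0.00247) on its brightest probe set and not called on the mean of its probe sets. For Gpd2, XKA minus Model was -0.55 ± 0.12 (adjusted p = 0.065). Fgf1 was not called against Normal, at 0.37 ± 0.14 (adjusted p = 0.125), and its XKA minus Model was 0.64 ± 0.14 (adjusted p = 0.071). Actb was not called against Normal either, at -0.04 ± 0.16 (adjusted p = 0.93).

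Calls were compared between probe sets of 1 gene and between neighbours on the genome. Among the called genes 538 had a single probe set and 823 had more. Of 1061 other probe sets of called genes that lay above the array median, 286 (27%) were called in the same direction, 17 (1.6%) in the opposite direction and 758 were not called. Of 18009 pairs of neighbouring genes 139 were both called, with 83 pairs higher together, 14 lower together and 42 in opposite directions. Of all genes 5.53% were higher and 1.95% lower. The number of pairs or runs that these shares alone would give was not computed. Runs of 3 or more neighbours in the same direction numbered 8, and besides the Cyp2c and Akr1c runs above they included Saa4, Saa1 and Saa2, and Lmo2, Fbxo3 and Cd59a, all higher.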

How the data were processed

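Liver RNA of 15 mice was hybridised to Affymetrix Mouse Genome 430 2.0 arrays after labelling with a 3′ in vitro transcription kit. The deposited values are linear intensities, 1 for each of 45101 probe sets and array, and the authors' methods name ArrayTrack with median scaling. The summary of probes and the background step were not stated in the sources used here, nor were detection calls or scan dates, so a scan batch could not be checked. The medians of the deposited arrays were 127 to 182.

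Here each array was scaled to a median of 1000 and the values were taken to log2. Of the probe sets 34958 had 1 gene symbol, 932 had several and 9211 had none; 64 controls were left out, and 34741 of the 34945 used matched RefSeq by Entrez identifier. The brightest probe set stood for each of 18193 genes. All 15 arrays were fitted with limma 3.58.1 in R 4.3.3 (lmFit, eBayes with an intensity trend) and p-values were adjusted by Benjamini-Hochberg over all genes. The scripts were tested on simulated data. The median standard error of XKA minus Normal was 0.283 on the log2 scale, and the number of arrays limits the precision. Where the arithmetic mean of a group's scaled intensities lay below the array median, the fold between XKA and Normal livers is given as a bound against that median, beside the fitted log2 difference, which is no bound. Signed differences are the first group minus the second.

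Candidates for description were 15 genes with large rises, 15 with large falls and up to 8 called genes of each list. Members of the 3 classes read across comparisons, and genes that the study or the strains single out, were candidates too. Not all candidates are named in the text, and some genes outside them, such as Nsdhl, are. The members and the 30 pathway and 14 marker lists (779 of 865 entries measured) were chosen with earlier results of these data known. Replicate numbers did not pair the mice. Alternatives tried were the values as deposited, quantile normalization, the mean of the probe sets, no dim genes, XKA and Normal arrays alone, no trend and weighted arrays. A block for the replicate number, a stricter threshold, Dunnett comparisons with Normal as the control and each array left out were tried too.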

Additional observations from a re-analysis of the deposited data

Results flagged for a closer look

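In 79 genes named in the text, each group of 5 arrays was tested for an array far from the others (Dixon's test on the log2 values, ratio above 0.71), and 11 of 158 gene and group pairs were found, where chance flags about 1 in 20. Among the XKA livers these were replicate 3 for Akr1c12 (48700), replicate 5 for Itih1 (37400) and for Clock (5410), and replicate 1 for Cyp8b1 (7990) and for Idi1 (1500). Among the Normal livers they were replicate 3 for Abcb11 (75100) and for Cyp2c37 (228000), replicate 1 for Fdps (35300), replicate 2 for Gda (27700) and replicate 5 for Insig1 (93200) and for Lrp4 (6060). With 5 arrays the test needs 1 of them apart and the other 4 close together. Replicate 2 of the XKA livers, the single array near the Normal level of Cyp2c37, did not pass on the log2 scale.

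Probe sets without exactly 1 gene symbol were outside the comparisons. Of 10092 of them 256 were called between XKA and Normal livers, 159 higher and 97 lower. They were counted as single probe sets, unlike the genes, of which 7.48% were called on their brightest probe set.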

How the results depend on the processing

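The counts are given as all differences between XKA and Normal, higher, lower, genes different under XKA alone, genes moved back and genes called in all 3 comparisons (1361, 1006, 355, 12, 15 and 3 as reported), and only counts that moved by over 1.5 times are named. As deposited, 780 were lower, 19 under XKA alone, 27 back and 9 in all 3. Quantile normalization gave 805 lower, 34, 49 and 18. The mean of the probe sets gave 828 in all, 571 higher, 2, 3 and 1. Leaving out dim genes gave 23 back and 5 in all 3, and array weights 25 and 11. Without the intensity trend the 6 counts were 892, 667, 225, 1, 3 and 0, and at an adjusted p under 0.01 they were 676, 512, 164, 2, 1 and 0. A limit of 0.5 on the Model change left 7 under XKA alone. Dunnett's test, which the study's methods name, was run here with Normal as the control. It gave 2663, 1946 and 717 unadjusted and 718, 554 and 164 after Benjamini-Hochberg. The study reports no such counts of genes. With 1 array left out the ranges were 963 to 1454, 690 to 1155, 254 to 374, 3 to 14, 6 to 31 and 0 to 6. With Model replicate 3 and XKA replicate 1 left out together, chosen after seeing the data as the arrays with the highest acute phase level, 5 genes were called in all 3, and without Normal replicate 5 and Model replicate 1, chosen likewise, 9 were back. On the mean of the probe sets 4 differences changed sign: Apob (-0.157), Per3 (-0.000395) and Prkaa2 (-0.819) in XKA minus Normal, and Anxa2 (0.0401) in XKA minus Model. The cause of these changes was not tested, except that a mean of probe sets takes in dim ones by construction.

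The replicate number as a block gave 1195 differences between XKA and Normal, 8 under XKA alone and 9 back. Same-numbered arrays correlated in their deviations at -0.0447 to 0.092, and 2 of 15 arrays correlated best with their own number in another group, so the numbers were not taken as a pairing. Strain, diet and supplier, and for XKA minus Normal also the treatment, cannot be told apart, and neither can a lower RNA level and a KK sequence under the probes. No detection calls bound the dim genes.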
